A study of Mus musculus with 11 samples.

Results

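Fibroblast growth factor 4 (FGF4), its receptors and the genes that ERK signalling turns on to restrain itself were examined in mouse embryonic stem cells (ESCs) treated with siRNAs to CMTR1. The group held 10 genes of the 54838 counted: Fgf4, the receptors Fgfr1 and Fgfr2, the inhibitors Spry2, Spry4 and Spred1, the ERK phosphatases Dusp4 and Dusp6, and the ETS transcription factors Etv4 and Etv5. They were picked by name as the ligand, receptors and feedback targets of one pathway, with results of these comparisons already known, Fgf4 having been among the genes with the lowest false discovery rates. The values of the 10 genes are therefore a description and carry no test, whereas other genes of the pathway were tested with all genes. Calls and intervals given for the 10 belong to that description, and nothing is read from them. All 10 passed the expression filter, which required a level above 1 CPM (reads per 1000000 counted reads) in at least 4 libraries and left 16073 genes.

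RNA was sequenced from E14 cells, an established mouse ESC line, grown on gelatin without feeder cells in serum replacement with the cytokine LIF. Cells received a control scramble siRNA (3 libraries) or an siRNA against CMTR1, siRNA 1 or siRNA 2 (4 libraries each), and were taken 36 h later. CMTR1 methylates the ribose of the first transcribed nucleotide of the mRNA cap, and the siRNA libraries ask which transcripts depend on it. Each CMTR1 group is a single siRNA sequence, both groups were compared with the same 3 control libraries, and all cells came from 1 line.

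FGF4 is the FGF that naive ESCs secrete and respond to. It binds FGF receptors together with heparan sulphate on the cell surface, and the receptors act through the adaptors FRS2, GRB2 and SHP2, RAS and the RAF, MEK and ERK kinases to move the cells out of self-renewal. ERK activity in turn induces Spry, Spred, Dusp and Etv4 or Etv5 transcripts, several of which code for inhibitors of the same route, so the levels of these transcripts are widely read as a gauge of FGF signalling. Fgf4 itself is transcribed in pluripotent cells under an enhancer bound jointly by SOX2 and OCT4 (the product of Pou5f1).

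The stretch around the start of Fgf4 is shown because Fgf4 was the member that differed most from control. From RefSeq (GRCm38.p6), chr7:144861136-144861435, plus strand, it runs from 250 bases before the transcript start to 50 bases from it, so that the nucleotide CMTR1 would methylate opens the last 50 bases. Capitals mark the overlapping TATATA letters (TATA box) and the GGGCGG letters (GC box).
Fgf4 promoter: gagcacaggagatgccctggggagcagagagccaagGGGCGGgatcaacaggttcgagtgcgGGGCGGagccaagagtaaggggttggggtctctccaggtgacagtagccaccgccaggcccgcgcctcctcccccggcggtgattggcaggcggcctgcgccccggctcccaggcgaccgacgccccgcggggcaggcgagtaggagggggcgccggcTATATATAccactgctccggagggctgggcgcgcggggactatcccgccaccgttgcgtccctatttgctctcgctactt
The TATATA matches lie 30 and 28 bases before the start and the GGGCGG matches 214 and 188 bases before it. TATATA was found on either strand in 5.67% of 32817 promoters of this length and GGGCGG in 35.6%. Promoters were matched for 6 of the 10 members (7 promoters, Etv5 having 2), and Fgf4 was the 1 of these 7 with TATATA, while 3 held GGGCGG. The GC content was 69.7% for Fgf4 and 43.7% for Fgfr2, the other member that differed from control with both siRNAs. The promoters of Spred1, Dusp6, Spry2 and Etv5, which did not, ran from 57.3% (Dusp6) to 74.0% (Etv5). The median over all promoters was 52.7%. The enhancer of Fgf4 lies within its last exon. Its adjoining SOX and POU letters, in capitals, were found once in the coding transcript of Fgf4, at chr7:144864394-144864411 (GRCm38), plus strand, in exon 3 of 3 and 1453 bases after the stop codon, in the 3′ UTR.
Fgf4 SOX and POU element: CTTTGTTtggATGCTAAT
The letters searched for were those of the Fgf4 element itself, so its match was fixed in advance. The same letters, 0 to 4 bases apart, occurred in transcripts of 3 of 55341 genes, Fgf4 included. A match of letters shows no binding.

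The libraries held 6738478 to 8382318 counted reads, so that a member was read from 306 reads (Fgfr2) to 2750 reads (Etv5) per library. Cmtr1, the gene targeted, was at 17.9 to 21.7 CPM in control, 16.2 to 21.3 CPM with siRNA 1 and 15.6 to 19.5 CPM with siRNA 2. These ranges overlapped, and the log2 fold changes were −0.088 (adjusted p = 0.743 by edgeR's quasi-likelihood test) and −0.25 (adjusted p = 0.144), so the mRNA level did not set the groups apart and they are called by their labels. Exons of Cmtr1 are shared with other annotated genes, whose ambiguous reads are not counted. The effect of this on its level was not tested. The paper describes a rapid reduction of CMTR1 after siRNA transfection, and protein is not part of these data. The cells carried the ESC markers Pou5f1, Sox2, Nanog, Zfp42, Esrrb and Dppa5a, whose summed level was 1306 to 1417 CPM in control, 1094 to 1253 CPM with siRNA 1 and 1177 to 1251 CPM with siRNA 2. Summed markers of other cells overlapped between control and the libraries of either siRNA in each list. They were 50.5 to 72.2 CPM for 6 primitive endoderm genes, 23.5 to 30.5 CPM for 5 trophectoderm genes and 758 to 859 CPM for 4 genes of formative and primed epiblast. Of 5 fibroblast genes, summing to 927 to 1320 CPM, nearly all reads came from Fn1, and Postn had at most 1 read in any library, as had Elf5 of the trophectoderm list. With siRNA 2, single markers of these lists passed the test: Col1a1 (log2 fold change 0.75, adjusted p = 6.42e-05) and Pou3f1 (0.22, adjusted p = 0.0169) were higher, and Fn1 (−0.24, adjusted p = 0.00236) and Dnmt3b (−0.13, adjusted p = 0.0497) lower. Their part in the results was not tested.

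Fgf4 (ENSMUSG00000050917, chr7:144847367-144865243, plus strand), the ligand, was lower with each siRNA than in any control library. Its level was 114, 121 and 119 CPM in the control libraries. With siRNA 1 it was 76.0, 77.3, 88.6 and 87.4 CPM. With siRNA 2 it was 79.0, 88.5, 88.4 and 94.8 CPM. All 8 CMTR1 siRNA libraries thus lay below the lowest control library, and the siRNA 1 and siRNA 2 libraries overlapped. Means were 118 ± 3.51 CPM (SD, n = 3), 82.3 ± 6.62 CPM (n = 4) and 87.7 ± 6.54 CPM (n = 4), a level 30.2% below control with siRNA 1 and 25.5% below it with siRNA 2. The log2 fold changes were −0.52 (SE 0.060) and −0.43 (SE 0.060), and siRNA 2 differed from siRNA 1 by 0.093 (SE 0.058, 95% interval −0.025 to 0.21). Counts of 512 to 979 reads per library gave a counting error of 3.30 to 4.03% of the mean, below the spread among the siRNA libraries of 8.04% and 7.45%. The exons of Fgf4 are shared with no other annotated gene. The summed ESC markers, too, were lower in all 8 siRNA libraries than in control. Of the 6 markers, Nanog, Zfp42 and Esrrb passed the test with both siRNAs (log2 fold changes of −0.57, −0.32 and −0.34 with siRNA 1 and −0.54, −0.31 and −0.55 with siRNA 2), and Pou5f1 (−0.16) and Dppa5a (−0.25) passed with siRNA 1. The part of these markers in the level of Fgf4 was not tested, and in RNA from bulk cells fewer expressing cells and less RNA per cell cannot be told apart.

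**Figure D1:**
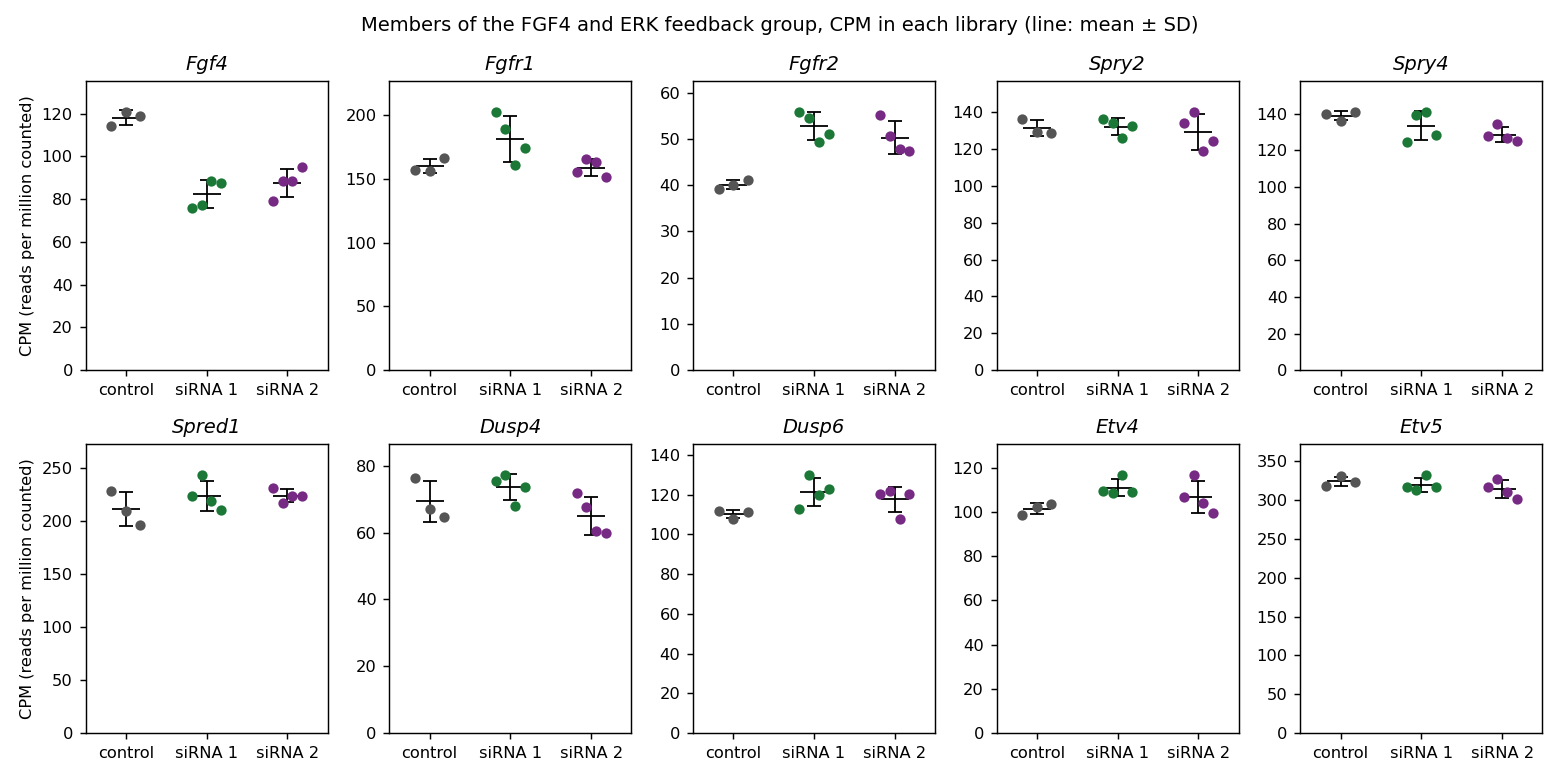
CPM (y axis from 0) of each of the 10 genes in each library, by group on the x axis. Points are libraries and lines the mean ± SD (n = 3 for control, n = 4 for each siRNA). Fgf4 libraries of both siRNAs sit at 76.0 to 94.8 CPM, below the control libraries at 114 to 121 CPM, and Fgfr2 libraries of both siRNAs sit above control.

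Of the 2 receptors, Fgfr2 was above control with both siRNAs, and Fgfr1 overlapped control with both. Fgfr2 (ENSMUSG00000030849, chr7:130162451-133123350, minus strand), the receptor more typical of primitive endoderm and trophectoderm, was at 39.2, 40.0 and 41.2 CPM in control. With siRNA 1 it was at 55.8, 54.6, 49.4 and 51.1 CPM, and with siRNA 2 at 55.1, 50.6, 47.9 and 47.3 CPM. Every CMTR1 siRNA library was above every control library, with log2 fold changes of 0.39 (SE 0.071) and 0.32 (SE 0.071), or 31.3% and 25.0% above control. Of its exon length, 3.04% is shared with Ctbp2. Fgfr2 was read from 306 to 438 reads per library, the fewest of the 10 genes. Fgfr1 (chr8:25513654-25575718, plus strand), the main FGF receptor of ESCs, was at 157, 157 and 167 CPM in control. With siRNA 1 it was at 203, 189, 161 and 174 CPM, a spread of 9.94% of the mean against 3.48% in control, and with siRNA 2 at 155, 166, 164 and 152 CPM. Its log2 fold change was 0.18 (SE 0.056) with siRNA 1 and −0.010 (SE 0.057) with siRNA 2. With siRNA 1 the 95% interval was 0.068 to 0.29. As a description and not a test, Fgfr1 did not count as called against control in the main fit, but did with siRNA 1 in 10 of 18 alternative settings. These included edgeR's exactTest, the test that the methods name. The siRNAs differed by −0.19 (SE 0.052), with siRNA 2 lower, and their libraries overlapped. Over the alternative settings this difference was −0.25 to −0.14, nearest 0 without siRNA 1 replicate 1. Exons of Fgfr1 and of Gm16159 on the other strand share 1.66% of the length.

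The inhibitors of RAS and ERK signalling differed little from control. Spry2 (chr14:105891947-105896819, minus strand), a Sprouty protein that blunts receptor signalling to RAS, was at 136, 129 and 129 CPM in control, at 126 to 136 CPM with siRNA 1 and at 119 to 139.9 CPM with siRNA 2. The groups overlapped, with log2 fold changes of 0.0081 (SE 0.054) and −0.023 (SE 0.054). Spry4 (chr18:38586247-38601415, minus strand), a second Sprouty and a common readout of FGF activity, was at 139.8, 136 and 141 CPM in control, at 125, 139, 141 and 129 CPM with siRNA 1 and at 128, 134, 127 and 125 CPM with siRNA 2. The siRNA 2 libraries all lay below control, and the siRNA 1 libraries overlapped it. The log2 fold changes were −0.056 (SE 0.052) and −0.11 (SE 0.052). Spred1 (chr2:117121374-117182279, plus strand), a Sprouty-related protein that brings neurofibromin to RAS, had its widest spread in control, at 228, 209 and 196 CPM. It was at 210.2 to 243 CPM with siRNA 1 and 217 to 231 CPM with siRNA 2, and its log2 fold changes were 0.086 (SE 0.051) and 0.085 (SE 0.051).

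Dusp6 and Dusp4 code for phosphatases that remove the activating phosphates from ERK, DUSP6 in the cytoplasm and DUSP4 in the nucleus. Dusp6 (chr10:99263231-99267489, plus strand) was at 112, 108 and 111 CPM in control. It was at 113, 130.1, 120.1 and 123 CPM with siRNA 1, all above control, and at 121, 122, 108 and 120.3 CPM with siRNA 2, where replicate 3 lay with the lowest control library. The log2 fold changes were 0.14 (SE 0.055) and 0.094 (SE 0.055). Dusp4 (chr8:34807297-34819894, plus strand) was at 76.4, 67.2 and 64.6 CPM in control, at 75.4, 77.4, 68.1 and 73.8 CPM with siRNA 1 and at 71.9, 67.8, 60.5 and 59.9 CPM with siRNA 2. All groups overlapped. The fold changes were of opposite sign, 0.085 (SE 0.067) and −0.097 (SE 0.068) on the log2 scale, and the siRNAs differed by −0.18 (SE 0.063).

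Etv4 and Etv5 code for ETS factors of the PEA3 family that ERK induces and that carry its transcriptional output. Etv4 (chr11:101769742-101785371, minus strand) was at 98.7, 102 and 104 CPM in control. It was at 109.7, 109, 117 and 109 CPM with siRNA 1, all above control, and at 107, 117, 104 and 99.4 CPM with siRNA 2, overlapping it. The log2 fold changes were 0.13 (SE 0.056) and 0.073 (SE 0.056). Etv5 (chr16:22381309-22439719, minus strand), the member with the most reads, was at 319, 331 and 324 CPM in control, at 313 to 333 CPM with siRNA 1 and at 301 to 328 CPM with siRNA 2, with log2 fold changes of −0.020 (SE 0.044) and −0.045 (SE 0.044). The spread within a group was 1.90 to 3.57% of its mean.

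**Figure D2:**
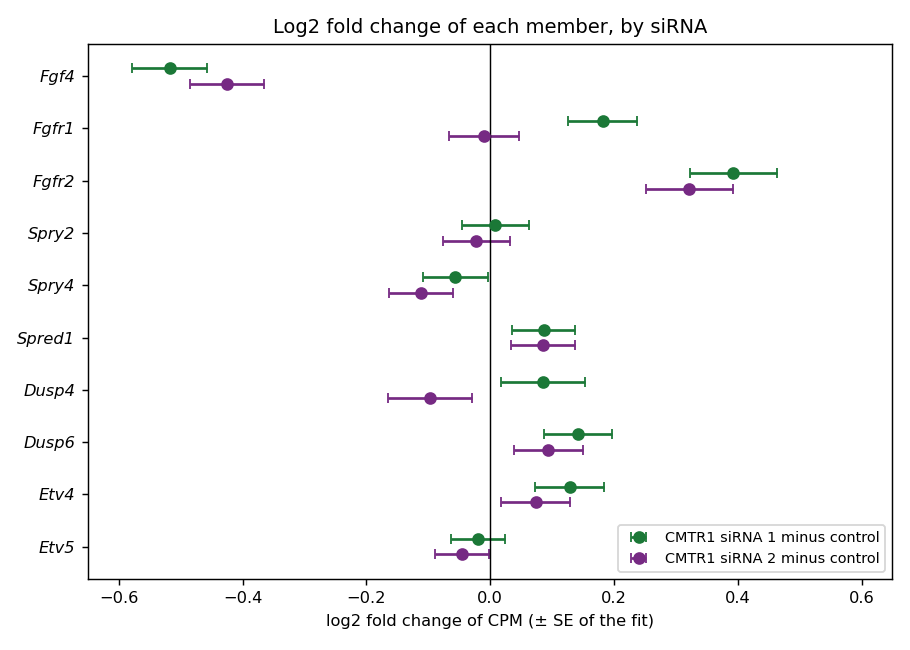
Log2 fold change of CPM (x axis) of each member against control, with the SE of the fit as bars, for siRNA 1 (green) and siRNA 2 (purple). Fgf4 lies at −0.52 and −0.43 and Fgfr2 at 0.39 and 0.32, while the Spry, Spred, Dusp and Etv genes lie between −0.11 and 0.14.

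Beside log2 fold changes of −0.52 and −0.43 for the ligand, those of the 7 feedback and target genes (Spry2, Spry4, Spred1, Dusp4, Dusp6, Etv4 and Etv5) lay between −0.11 and 0.14. The outermost bounds of their 95% intervals were −0.23 and 0.25. Their summed level was 1109, 1083 and 1068 CPM in the control libraries, 1099.7, 1145, 1123 and 1093 CPM with siRNA 1 and 1109, 1125, 1052 and 1054 CPM with siRNA 2, so that the groups overlapped. Their median log2 fold change was 0.085 with siRNA 1 and −0.023 with siRNA 2, beside 0.024 and 0.029 over all 16073 genes. For siRNA 2 against siRNA 1 all 7 were below 0, with a median of −0.048 against 0.0018 over all genes, of which 49.5% were below 0, and, apart from that of Dusp4, the differences lay between −0.055 and −0.0011. Transcript levels of phosphatases and inhibitors are not ERK activity, which was not measured here.

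Counted by call, 2 of the 10 genes passed an FDR of 0.05 with siRNA 1, where 4.67% of all tested genes did: Fgf4, lower (1.97% of all genes), and Fgfr2, higher (2.71%). With siRNA 2 the same 2 genes passed in the same directions, where 9.72% of all genes passed, 3.55% lower and 6.17% higher. Between the siRNAs 1 of the 10, Fgfr1, passed, lower with siRNA 2, where 7.44% of all genes passed and 2.96% were lower. By library ranges, with siRNA 1 no overlap with control was seen for Fgf4 below (6.23% of all genes) and for Fgfr2, Dusp6 and Etv4 above (9.28%). With siRNA 2 it was seen for Fgf4 and Spry4 below (6.99%) and for Fgfr2 above (12.4%). Since the genes were chosen with these contrasts known, nothing is read from these shares.

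Per length of transcript, in CPM per kilobase of exon (RPKM), the control levels placed Etv5 first at 79.0 ± 1.50 (SD, n = 3) and Spry2 next at 62.9 ± 1.98. Fgf4 was the third at 36.9 ± 1.10 RPKM, with a level above that of 92.0% of the tested genes. It was followed by Dusp6 at 35.2 ± 0.634, Etv4 at 32.7 ± 0.834, Spred1 at 31.1 ± 2.37, Spry4 at 29.2 ± 0.511 and Dusp4 at 25.3 ± 2.27 RPKM. Fgfr1 was at 16.2 ± 0.565 RPKM and Fgfr2 at 3.89 ± 0.0955 RPKM, a level above that of 45.4% of tested genes. The ranges of neighbours overlapped for Etv4 with Spred1 and for Spred1 with Spry4, and no other neighbouring ranges did. Those of Fgf4 and Dusp6 barely parted, with the lowest Fgf4 library at 35.69 RPKM and the highest Dusp6 library at 35.67 RPKM. The order also rests on the annotated exon lengths. With the siRNAs Fgf4 was at 25.8 and 27.4 RPKM, and Fgfr2, at 5.10 and 4.86 RPKM, remained the lowest of the 10.

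**Figure D3:**
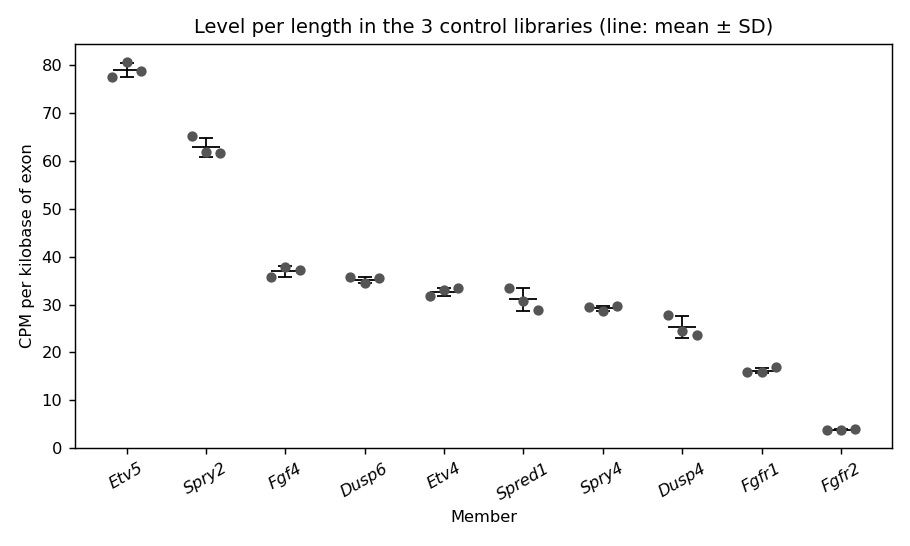
Level per length of each member (y axis, CPM per kilobase of exon) in the 3 control libraries, in order of the mean. Points are libraries and lines the mean ± SD. Etv5 stands at 79.0 and Fgfr2 at 3.89, with Fgf4 the third at 36.9.

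Of the other 21 FGF family genes, 11 passed the filter and 1, Fgf15, passed the test, with a lower level under both siRNAs. Over all genes, 1.97% and 3.55% were called lower with siRNA 1 and siRNA 2. Fgf15, the mouse counterpart of human FGF19 and a hormone of bile acid control in the adult gut, was at 16.2, 14.6 and 12.2 CPM in control. It was at 9.09 to 12.1 CPM with siRNA 1 (log2 fold change −0.42, SE 0.13, adjusted p = 0.0394 by edgeR's quasi-likelihood test) and at 9.17 to 11.4 CPM with siRNA 2 (−0.51, SE 0.13, adjusted p = 0.00582). Every siRNA library was below every control library. The call with siRNA 1 was lost in 7 of 18 alternatives, among them without control replicate 1 or 2 or siRNA 1 replicate 1, 3 or 4, and the log2 fold change then ranged from −0.44 (without siRNA 1 replicate 1) to −0.32 (without control replicate 1). The call with siRNA 2 was lost without control replicate 1 (−0.41). Among the FGF family genes that did not pass, Fgf5, a marker of the primed epiblast, was at 5.48 to 9.38 CPM over all libraries, with log2 fold changes of 0.035 and −0.064. Fgf8 was near the filter, at 0.942 to 1.60 CPM in control, 0.264 to 0.802 CPM with siRNA 1 and 0.988 to 1.35 CPM with siRNA 2 (adjusted p = 0.200 and 0.955). Fgf1 (log2 fold changes −0.62 and −0.44), Fgf3 (−0.22 and −0.40), Fgf10 (0.19 and −0.12), Fgf11 (−0.19 and −0.37), Fgf13 (0.56 and 0.53), Fgf14 (−0.24 and 0.25), Fgf17 (−0.16 and 0.25) and Fgf18 (0.15 and 0.26) had adjusted p-values of 0.191 to 0.889. None of the 11 reached the CPM of Fgf4, the nearest being Fgf15.

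Fgf15 and Fgf3 lie beside Fgf4 on chromosome 7, a grouping that was looked at after the value of Fgf15 had been seen. Distances are to the annotated gene model of Fgf4, which begins upstream of the RefSeq start shown above. Fgf3 ends 2931 bases before that model and was at 1.38 to 1.80 CPM on average in the 3 groups, from at most 17 reads. Its log2 fold changes of −0.22 and −0.40 had 95% intervals of −0.85 to 0.41 and −1.04 to 0.25, so that a difference of the size seen for Fgf4 was not detectable at this depth. Fgf15 begins 31288 bases after Fgf4, with antisense genes Gm26793 and Gm39119 overlapping it at up to 5 reads. Beyond it, Ccnd1, the cyclin D1 gene, lies 64688 bases from Fgf4. Its mean level was 109.6 CPM in control, 103 CPM with siRNA 1 and 122 CPM with siRNA 2, neither passing the test against control (adjusted p = 0.461 and 0.0851), and the siRNAs differed by 0.25 on the log2 scale (adjusted p = 0.00256). Bc1, a short non-coding RNA gene 49227 bases from Fgf4, was higher with siRNA 2 (0.33, adjusted p = 0.0281) and not with siRNA 1 (−0.033, adjusted p = 0.918). Of the genes tested within 250000 bases of Fgf4, Fgf15 was thus lower with both siRNAs and Bc1 higher with siRNA 2 only. Fgf3 and Ccnd1 did not pass against control. Neither did LTO1 (log2 fold changes 0.22 and 0.13) nor Ano1 (−0.53 and −0.067, from at most 23 reads).

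The factors of the Fgf4 enhancer were at 192 to 209 CPM (Sox2) and 473 to 497 CPM (Pou5f1) in control. Sox2 was at 184 to 204 CPM with siRNA 1 and 180 to 187 CPM with siRNA 2, with log2 fold changes of −0.041 (adjusted p = 0.738) and −0.12 (adjusted p = 0.125). Pou5f1 was at 419, 440, 444 and 434 CPM with siRNA 1, below all control libraries, and fell by 0.16 on the log2 scale (SE 0.045, adjusted p = 0.0332 by edgeR's quasi-likelihood test). That call was lost in 7 of 18 alternatives, 6 of which left out 1 library each (any control, or siRNA 1 replicate 1, 2 or 4), with fold changes of −0.18 to −0.14 over all 18. With siRNA 2 Pou5f1 was at 436 to 507 CPM, overlapping control (−0.033, adjusted p = 0.720).

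The rest of the pathway was followed in lists by role, 109 genes with the other FGF family genes and the enhancer factors, of which 96 were tested. With siRNA 1, 13 (13.5%) passed, 4 lower and 9 higher, and with siRNA 2, 16 (16.7%) passed, 5 lower and 11 higher, beside 4.67% and 9.72% of all genes. The split depended on the scaling: with TMM factors it was 7 lower and 7 higher with siRNA 1 and 6 lower and 7 higher with siRNA 2, and with DESeq2 4 and 4, and 4 and 6. The median log2 fold change over the 96 was −0.0047 and 0.037, beside 0.024 and 0.029 over all genes. Since the lists were chosen with earlier results of these data known, nothing is read from these shares or medians. Among the other receptors and co-receptors Fgfr3, Fgfr4, Fgfrl1 and Klb were tested and none passed, and none had an unadjusted p under 0.05 with either siRNA or passed with DESeq2 or exactTest. Their levels were low, with Fgfr3 at 2.47 to 3.77 CPM and Fgfr4 at 3.46 to 5.49 CPM.

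Heparan sulphate holds FGFs at the cell surface. The list of its enzymes and proteoglycans had 5 of 19 genes higher and none lower with siRNA 1, and 5 higher and 1 lower with siRNA 2. Over all genes, 2.71% were higher and 1.97% lower with siRNA 1, and 6.17% and 3.55% with siRNA 2. The genes of the list have different roles and the balance of directions depended on the scaling, so nothing is read from these counts. Gpc4, a glypican core protein, was at 57.9 to 59.4 CPM in control, 75.7 to 82.9 CPM with siRNA 1 (log2 fold change 0.42, adjusted p = 7.96e-06) and 64.9 to 68.2 CPM with siRNA 2 (0.18, adjusted p = 0.0427). It rose with both, and by less with siRNA 2 (difference −0.23, adjusted p = 0.00405). The call with siRNA 2 held in 7 of 18 alternatives, with values from 0.16 to 0.20. It was lost with TMM factors, with DESeq2, with no low-count filter and in a fit of only the groups compared. It was also lost without any 1 of the 3 control libraries or of 4 siRNA libraries (siRNA 1 replicate 4, siRNA 2 replicates 1, 3 and 4). Gpc6, another glypican (0.53 with siRNA 1, adjusted p = 0.0194), Ndst2, a sulphotransferase (0.37 with siRNA 1, adjusted p = 0.0470), and Sdc2, a syndecan (0.62 with siRNA 2, adjusted p = 0.0486), passed with 1 siRNA and with positive values for the other (0.35, 0.16 and 0.51) that did not pass. These calls were lost in 3, 8 and 12 of 18 alternatives. For Gpc6 these were DESeq2 and the fits without control replicate 2 (0.40) or siRNA 1 replicate 1 (0.42), and for Ndst2 and Sdc2 they included the fits without any 1 control library, where Ndst2 was at 0.28 to 0.44. Hs6st1, a heparan sulphate sulphotransferase, was the 1 lower gene, at 96.9 to 111.8 CPM in control, 90.6 to 97.7 CPM with siRNA 1 (−0.14, adjusted p = 0.173) and 72.9 to 86.6 CPM with siRNA 2 (−0.37, adjusted p = 3.44e-05), and the siRNAs differed by −0.22 (adjusted p = 0.00921). With DESeq2 1 gene of the list passed with siRNA 1 and 3 with siRNA 2.

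Mapk3, which codes for ERK1, was at 56.5 to 64.2 CPM in control, 76.6 to 78.7 CPM with siRNA 1 and 66.6 to 82.7 CPM with siRNA 2. It rose in all 8 siRNA libraries relative to every control library, with log2 fold changes of 0.38 (SE 0.065, adjusted p = 0.000146) and 0.31 (SE 0.066, adjusted p = 0.00137), and was the 1 of 9 RAF, MEK and ERK genes to pass with either siRNA. Of 15 adaptor and RAS genes, 2 passed with each siRNA, and none with both. The counts of both lists stand beside 4.67% of all genes with siRNA 1 and 9.72% with siRNA 2. Gab1, a docking protein that carries SHP2, was at 283 to 297 CPM in control and 203, 212, 233 and 227 CPM with siRNA 1, where it fell by 0.40 on the log2 scale (SE 0.049, adjusted p = 5.57e-07). With siRNA 2 it was at 296 to 333 CPM (0.14, adjusted p = 0.0508, past the threshold in 4 of 18 alternatives), and the siRNAs differed by 0.54 (SE 0.046, adjusted p = 1.95e-11). Nf1, the neurofibromin gene, rose by 0.20 with siRNA 1 (adjusted p = 0.0157), a call lost with DESeq2 and without control replicate 1 (0.18), control replicate 3 (0.19) or siRNA 1 replicate 2 (0.19). Shc1 (0.23, adjusted p = 0.00175) and Rasa1 (0.28, adjusted p = 0.00401), an adaptor and a RAS GTPase-activating protein, rose with siRNA 2. The call of Rasa1 was lost without control replicate 3 (0.24). With the other siRNA, values were 0.15 for Nf1 (adjusted p = 0.0669), 0.13 for Shc1 (adjusted p = 0.125) and 0.17 for Rasa1 (adjusted p = 0.151), and none of these 3 genes passed between the siRNAs (adjusted p = 0.574, 0.222 and 0.307).

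**Figure D4:**
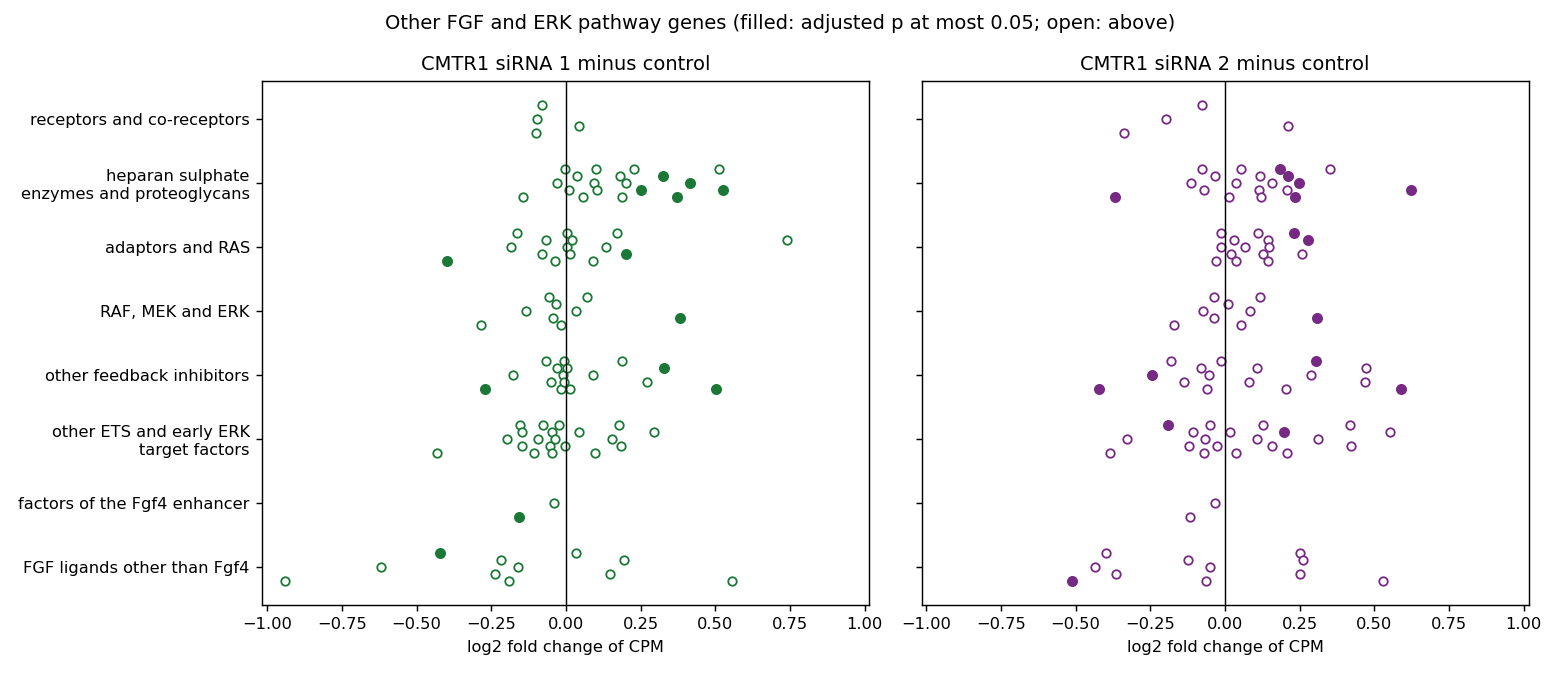
Log2 fold change of CPM (x axis) of 96 other FGF and ERK pathway genes, in rows by role, for siRNA 1 (left) and siRNA 2 (right) against control. The row labelled FGF ligands holds all tested FGF family genes other than Fgf4. Each circle is a gene, filled where the adjusted p was at most 0.05 (13 genes with siRNA 1 and 16 with siRNA 2) and open otherwise, with vertical offsets only to part the circles.

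Genes listed as feedback inhibitors outside the 10 members moved in both directions. Spred3, a Spred family member, was at 27.9 to 30.2 CPM in control, 38.7 to 44.8 CPM with siRNA 1 and 42.7 to 47.8 CPM with siRNA 2, and rose by 0.50 (SE 0.078, adjusted p = 3.17e-05) and 0.59 (SE 0.077, adjusted p = 6.66e-07) on the log2 scale in every alternative run. Il17rd, which codes for the membrane inhibitor SEF, was at 106 to 112 CPM in control and 126 to 144 CPM with siRNA 1 (0.33, adjusted p = 9.56e-05), but at 98.7 to 109 CPM with siRNA 2 (−0.054, adjusted p = 0.605). Spry1 was at 15.9 to 19.0 CPM in control and 14.8 to 20.4 CPM with siRNA 1 (−0.0070, adjusted p = 0.984), and at 11.6 to 14.1 CPM with siRNA 2, where it fell by 0.42 (adjusted p = 0.0133). That call was lost without control replicate 1 or siRNA 2 replicate 2, with log2 fold changes of −0.35 and −0.37. Dusp3, a phosphatase of ERK and JNK, rose with siRNA 2 (0.30, adjusted p = 0.0130), from 25.2 to 27.9 CPM in control to 30.7 to 36.2 CPM. The call was lost with DESeq2 and without control replicate 1 or 3 or siRNA 2 replicate 1, and its lowest value, 0.25, was that without the last of these. Dusp16, a phosphatase of JNK and p38, was lower with both siRNAs, with log2 fold changes of −0.27 and −0.24 (adjusted p = 0.0459 and 0.0499), calls that held in 11 and 6 of 18 alternatives and were lost without any 1 control library, with values of −0.31 to −0.23 and −0.27 to −0.20 over the alternatives. The list was drawn broadly and, besides Dusp16, also held Flrt2 and Flrt3. In all, 3 of its 16 genes passed with siRNA 1 and 4 with siRNA 2, beside 4.67% and 9.72% of all genes. Nothing is read from these shares.

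Of 20 other ETS and early ERK target genes tested, none passed with siRNA 1 by edgeR's quasi-likelihood test, where 4 had an unadjusted p under 0.05 and DESeq2 and exactTest each called 1. With siRNA 2, 2 passed (10%), beside 9.72% of all genes. Etv1, the third PEA3 factor, rose by 0.20 (adjusted p = 0.0364) from 60.7 to 61.3 CPM in control to 63.8 to 74.6 CPM. Erf, an ETS repressor that ERK inactivates, fell by 0.19 (adjusted p = 0.0275). These calls were lost in 9 and 5 of 18 alternatives, among them without any 1 control library or siRNA 2 replicate 4, and for Etv1 also without siRNA 2 replicate 1. The values then were 0.16 to 0.20 for Etv1 and −0.20 to −0.13 for Erf. The immediate early genes Egr1 (0.098 and 0.42, adjusted p = 0.826 and 0.0786) and Fos (−0.048 and 0.11, adjusted p = 0.962 and 0.881) did not pass.

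By likeness over the 11 libraries, measured as the root-mean-square difference of log2 CPM centred on each gene's own mean among 11865 genes with a mean log2 CPM of at least 2, Mreg, Tdh, Klf2, Gm4737 and Zfp42 lay nearest to Fgf4. Their differences were 0.063, 0.066, 0.074, 0.089 and 0.094, where the values of Fgf4 itself spread by 0.23 about its mean. Each was lower with both siRNAs, as the choice by likeness fixes: Klf2, a factor of naive pluripotency, by −0.58 and −0.38, Tdh, the threonine dehydrogenase of ESCs, by −0.44 and −0.29, and Zfp42 (REX1) by −0.32 and −0.31. The log2 fold changes were −0.39 and −0.35 for Mreg, the nearest, and −0.43 and −0.26 for Gm4737. None of the Spry, Dusp and Etv members was among the 5, which their levels near control had already fixed. Genes nearest to Spry4 were Las1l, Prpf6, Ubfd1, Sp1 and Dnmt3b (0.033 to 0.040), and those nearest to Dusp6 were Arl15, Hnrnpr, Rsu1, Tmem184c and Eif3i (0.037 to 0.047). Spry4 and Dusp6 themselves spread by 0.069 and 0.083, so that likeness to them was likeness to a nearly level profile.

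**Figure D5:**
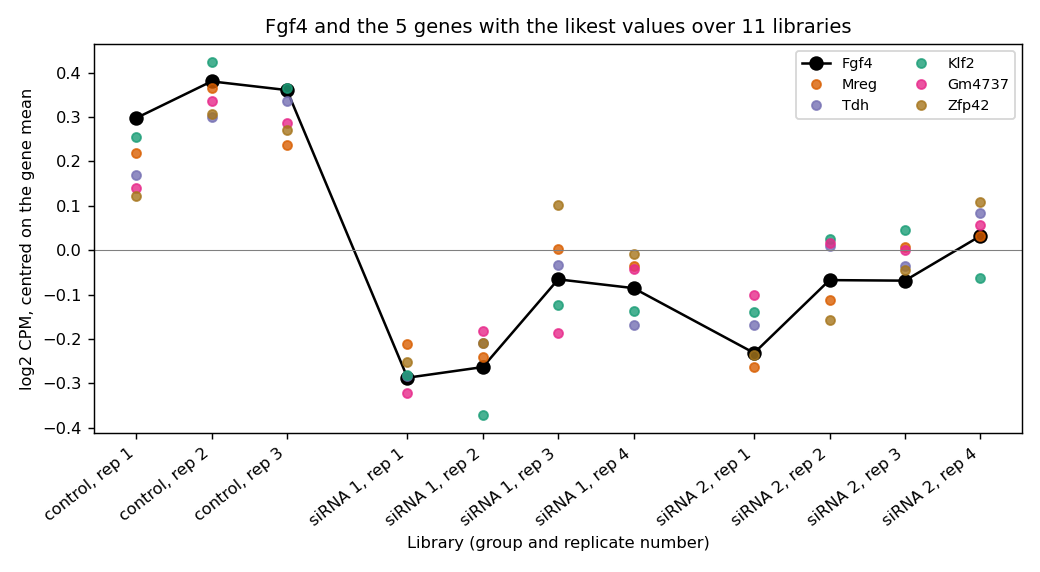
Log2 CPM centred on the mean of each gene over the 11 libraries (y axis), by library (x axis), for Fgf4 (black, joined) and the 5 genes with the nearest values (coloured points). Control libraries of Fgf4 lie 0.30 to 0.38 above its mean and those of the siRNAs between −0.29 and 0.03.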

How the data were processed

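RNA of 11 libraries was analysed as deposited. The authors deposited counts, whole reads per Ensembl gene, made per the methods by trimming with Cutadapt, alignment to GRCm38 with STAR, removal of duplicates with Picard and counting with featureCounts. Versions are not given in the sources used here. Libraries were rRNA-depleted and directional, with 75-base paired reads. In 10 files summary rows, left out here, held 46.5 to 51.1% of reads. Their form is that of HTSeq-count and not of featureCounts, so which program made the counts is uncertain. Removing duplicates can lower the counts of highly expressed genes. Of 54838 identifiers, 54809 matched GENCODE symbols.

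The counts were scaled by library totals, as in the methods, and 16073 genes passed a filter of more than 1 CPM in at least 4 libraries. Tests were those of edgeR 4.0.16 in R 4.3.3 (glmQLFit and glmQLFTest, 1 term for the 3 groups), with Benjamini-Hochberg adjustment over all genes and calls at 0.05. The methods name exactTest, run as an alternative beside TMM factors, DESeq2 1.42.0, other filters, a fit of only the groups compared, a replicate block and each library left out. The code was tested on simulated data. Log2 CPM used a prior count of 0.5. Levels per length used merged exons. Python 3.11.15 made tables, motif counts and figures.

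The methods give 3 biological replicates, whereas 4 libraries were deposited for each CMTR1 siRNA. All were used, and whether any share a culture is not given in the sources used here. The p-values measure the spread between these samples. Members and lists were chosen with earlier results of these data known. Besides the members, genes named were the called genes with the largest change of each list (at most 4), Sox2, Pou5f1, all detected FGF family genes and the 5 genes likest to Fgf4, Spry4 and Dusp6. Fgfr3, Fgfr4, Fgfrl1, Klb, Dusp16, Egr1, Fos, Hs6st1, Ets1, Ets2, Elk3, Glce, Grb2, Sulf2, Braf, the markers and the neighbours of Fgf4 were named after their values were seen.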

Additional observations from a re-analysis of the deposited data

Results flagged for a closer look

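By the test of siRNA 2 against siRNA 1, 14 of the 96 pathway genes tested differed (14.6%), beside 7.44% of all genes. Of the 14, 6 were lower and 8 higher with siRNA 2. Nothing is read from these shares, since the lists were chosen with earlier results known. Of the genes taken by the naming rule, 5 were among the 14. So were Ccnd1 and Hs6st1, whose values stand with the neighbours of Fgf4 and the heparan sulphate genes. The rest were Ets1 (log2 difference 0.63, the largest of the 14), Elk3 (−0.51), Ets2 (0.28), Glce (0.24), Grb2 (0.22), Sulf2 (−0.17) and Braf (0.14). Ets1 had 21 to 51 reads per library. The log2 difference was 0.54 for Gab1 (0.5431, adjusted p = 1.954e-11 by edgeR's quasi-likelihood test), −0.384 for Il17rd (adjusted p = 9.911e-07), 0.3702 for Dusp3 (adjusted p = 0.001359), −0.2328 for Gpc4 (adjusted p = 0.004047) and −0.415 for Spry1 (adjusted p = 0.01144). The call for Spry1 was lost without siRNA 1 replicate 4 or siRNA 2 replicate 2, with values of −0.48 to −0.32 over all alternatives. Those for Gab1, Il17rd, Dusp3 and Gpc4 held in all 18. Among the members, the value of Fgfr1 was −0.1918, given as a description.

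In 5 of 76 groups of 4 libraries 1 library stood apart from the other 3, where chance gives about 1 in 20. Dusp6 was at 108 CPM in siRNA 2 replicate 3 (the others 120.3 to 121.8), and Etv4 was at 117 CPM in siRNA 1 replicate 3 (108.6 to 109.7). Dusp3 was at 36.2 CPM in siRNA 2 replicate 1 (30.7 to 31.5), Spred3 at 47.8 CPM in siRNA 2 replicate 2 (42.7 to 43.3), and Fgf8 at 0.264 CPM in siRNA 1 replicate 3 (0.742 to 0.802). Without these libraries the log2 fold change of Dusp6 with siRNA 2 was 0.13 and that of Etv4 with siRNA 1 was 0.10.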

How the results depend on the processing

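As a description, with no test, the log2 fold change of Fgfr2 over the 18 alternatives was 0.37 to 0.42 with siRNA 1 and 0.28 to 0.35 with siRNA 2. For Fgf4, leaving out single libraries gave −0.56 to −0.48 with siRNA 1, −0.47 to −0.38 with siRNA 2 and 0.053 to 0.14 between the siRNAs. The number of members counted as called between the siRNAs was 2 with the replicate block, Dusp4 joining Fgfr1, and 0 to 2 without single libraries. Against control, without single libraries, it was 2 to 3 with siRNA 1, Fgfr1 being the member added, and 2 with siRNA 2. Between the siRNAs, Fgfr1 left the count without siRNA 1 replicate 1 or 2 or siRNA 2 replicate 1 or 4. DESeq2 called fewer genes: 958 in place of 1562 with siRNA 2, 740 in place of 1196 between the siRNAs, and 8 and 10 pathway genes in place of 13 and 16. It gave no adjusted p for some low genes. Scaling set the balance of directions: with total counts 57.9% and 63.4% of the genes called were higher, and with TMM factors 46.4% and 49.8%. Without single libraries 355 to 850, 807 to 1667 and 724 to 1374 genes passed for siRNA 1, siRNA 2 and their difference, and 6 to 14, 8 to 17 and 9 to 14 pathway genes. Lowest were the counts without control replicate 2 (355 and 914), control replicate 3 (447 and 807), siRNA 1 replicate 2 (424) and siRNA 2 replicate 1 (1015). The cause was not tested. With replicate number as a block, 840, 1486 and 1242 genes passed, and the Fgf15 and Pou5f1 calls with siRNA 1 and the Etv1, Erf and Sdc2 calls with siRNA 2 were lost. The numbers were not shown to pair the samples: deviations from group means correlated at a mean r of 0.00872 over 10 same-number pairs, none above 0.1, and 5 of 11 libraries correlated best with their own number. At 7 to 17 reads, Fgf3 was too shallow for a change of the size seen for Fgf4 to be detectable.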
